A study of Arabidopsis thaliana with 88 samples.

Results

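Of 7065 antisense long noncoding RNA (lncRNA) loci of Arabidopsis thaliana that overlapped no transposable element (TE) fragment, 1225 were methylated in the CG context to 30% or more. A locus was called antisense when it overlapped a protein-coding gene, its host, on the other strand alone. The loci were chosen by their CG level, taken as the mean over the accession means of 32 natural accessions, so a high CG level is how they were found and not a result. The parent set was 8120 antisense loci among 11071 noncoding loci that the authors annotated. Of the 1225 loci, 1179 were measured in 80% of the libraries or more and 46 were not. Of the 1179, 2 read exactly 100% in every library and were left out, so that levels rest on 1177 loci.

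The 88 bisulfite sequencing libraries came from untreated wild accessions grown on soil at 21 °C with 16 h of light and 8 h of dark. Each library held leaf DNA at the stage of 14 rosette leaves, from 2 to 3 plants of an accession. A replicate number marks a separate growth round, and 3 accessions had 1 library, 13 had 2, 5 had 3 and 11 had 4. Groups are named by the accession number, and no mutant or treated plant was compared; 6909 and 6911 are the numbers of the Columbia and Cape Verde Islands accessions in the public list of sequenced accessions.

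Plants methylate cytosines before a G (CG), before a G one base further on (CHG) and elsewhere (CHH). The methyltransferase MET1 copies CG methylation at each round of DNA replication. Many long, steadily transcribed genes carry CG methylation alone in their bodies, away from the start and end of transcription, a state called gene-body methylation. Silenced TEs and some silenced genes are methylated in all contexts, with CHG methylation kept by CMT3 together with histone H3 lysine 9 methylation. An antisense lncRNA is transcribed from the strand opposite to its host, and its DNA is also the DNA of the host over the overlap, so one measured cytosine counts in both levels.

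CG-methylated antisense loci lay inside long host genes. Their hosts numbered 1168 and had a median length of 3602 bp (quartiles 2673 and 4929 bp), against 2303 bp for the hosts of the 5840 other antisense loci without TE. The loci themselves were a median of 740 bp long, against 813 bp for the others. Of the 1225 loci, 1057 (86.3%) lay wholly inside the host, compared with 60.02% of the others. Only 87 (7.10%) ran past the 5′ end of the host, the end where the host's own transcription starts, while 31.3% of the others did. The median locus covered 21.1% of its host, against 35.9%. The median distance to the nearest TE fragment or annotated TE gene was 4028 bp, close to the 3815.5 bp of the others. An annotated TE gene overlapped 1 of the 1225 loci.

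The place of a locus within its host went with its methylation. Along the host, from its start to its end, the share of antisense loci that reached 30% in CG was 1.93% for loci centred in the first 10% of the host and 34.7% for those centred between 80% and 90%. It was 17.9% in the last 10%. By host length it was 7.63% of 524 loci for hosts under 1 kb, 4.45% for hosts of 1 to 2 kb, and then higher with each longer class, up to 44.9% for hosts of 6 kb or more. Both patterns were present together. In hosts of 4 kb or more, with the host split into 3 equal parts, 14.6% of 438 loci centred in the 5′ part reached 30%, against 55.7% of 264 in the middle part and 47.1% of 592 in the 3′ part. In hosts of 2 to 4 kb the same shares were 3.01%, 26.4% and 27.9%. In hosts under 2 kb no part passed 9%. These shares describe the loci and carry no test, since loci of a host share DNA and position was not assigned by a replicate.

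**Figure D1:**
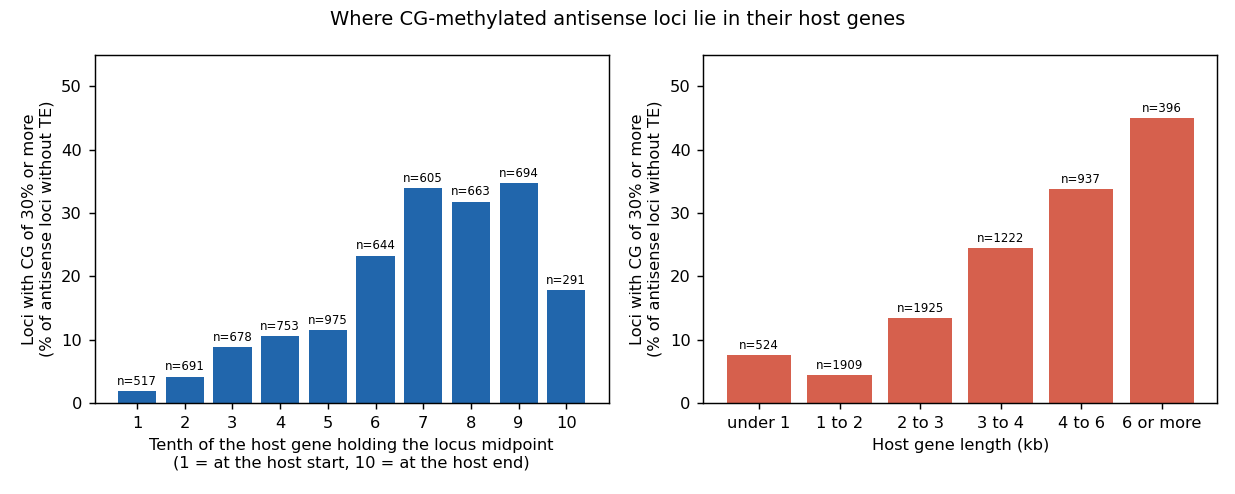
Share of antisense loci without TE whose mean CG level was 30% or more, by the position of the locus midpoint along the host gene in steps of 10% (left) and by host length in kb (right), with the number of antisense loci above each bar. The share is lowest at the host start (1.93%), reaches 34.7% between 80% and 90% of the host, and is highest, 44.9%, in hosts of 6 kb or more.

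Most hosts (1115) held 1 CG-methylated antisense locus and 50 held a pair. AT5G40910 held 4, and TADA (a chloroplast tRNA adenosine deaminase) and PRT6 (a ubiquitin ligase of the N-degron pathway) held 3 each. The 4 loci at AT5G40910, CUFF_NC.10367, CUFF_NC.10368, CUFF_NC.10369 and CUFF_NC.10370, overlap each other and had CG levels of 43.3%, 46.9%, 48.0% and 44.7%, so they are largely 1 measurement. The loci of TADA are apart: CUFF_NC.2417 was at 41.2%, CUFF_NC.2418 at 62.2% and CUFF_NC.2419 at 40.6%, around a host level of 47.8%.

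Over the 32 accessions the loci averaged 50.7% ± 7.71 in CG (SD over accession means, n = 32). Their mean CHG level was 2.82% ± 0.398 and their mean CHH level 0.941% ± 0.0828. These means hide a split. The median locus had 0.492% in CHG, and of 1164 loci with enough CHG values 984 were at 1% or less, 94 were at 10% or more and 86 lay between. The most frequent state was therefore CG methylation with CHG and CHH near the lowest levels in the data: the 984 loci had 49.2% ± 8.26 in CG, 0.477% ± 0.0604 in CHG and 0.458% ± 0.0293 in CHH. Antisense loci under the limit had 0.546% in CHG and 0.457% in CHH, with 4.48% in CG.

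**Figure D2:**
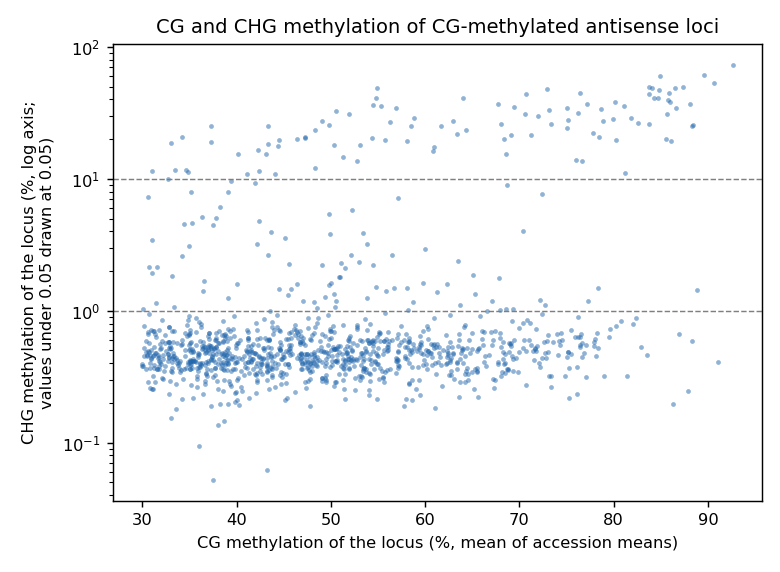
Each point is 1 CG-methylated antisense locus, with its mean CG level on the x axis (percent) and its mean CHG level on the y axis (percent, log axis). Dashed lines mark 1% and 10%: 984 loci lie at or below the lower line over the whole range of CG, and 94 lie at or above the upper line.

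The 94 loci with CHG methylation differed from the 984 in more than CHG. They had 65.5% ± 6.09 in CG, 28.0% ± 3.93 in CHG and 5.54% ± 0.811 in CHH. Their hosts were methylated in the same way, at 56.3% in CG and 23.2% in CHG, whereas hosts of the 984 had 33.1% in CG and 0.510% in CHG. The 400 bp window at the host's own start was at 51.4% ± 4.56 in CG for the 94 and at 3.90% ± 0.735 for the 984. For the hosts of antisense loci under the limit it was at 4.398% ± 0.573. Hosts of the 94 were short, with a median of 1445.5 bp against 3822 bp. Of the 94, 39.4% lay wholly inside the host, against 93.4%. A TE fragment or TE gene stood within 500 bp of 36.2% of the 94 and of 5.18% of the 984, although no locus overlapped an annotated TE fragment. Whether a TE lies in or near these loci in accessions other than the reference was not tested.

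Some of the highest CG levels were at loci also methylated in CHG. CUFF_NC.3824, a locus on chromosome 2 (9529445 to 9529854, minus strand) inside AT2G22440, was at 92.7% ± 5.20 in CG and 73.3% ± 13.0 in CHG, and its host was at 91.3% and 66.5%. Of the CG values of this locus 38.6% were exactly 100%, and without those values its mean was 87.9%. Its CHG level rests on 68 libraries (77.3%), under the 80% asked for, so it is not among the 94 loci and entered no CHG test. Its neighbour CUFF_NC.3823 in the same host had 89.6% in CG and 60.8% in CHG. CUFF_NC.8895 in PRSL1, on chromosome 4 at 18583187 to 18584034, had 90.7% ± 3.24 in CG, with accession means from 83.3% to 95.3% and a median of 91.2%. It had 53.7% in CHG. CUFF_NC.4820 at AT2G46765 had the highest CHH level among these, 22.9%, with 60.2% in CHG. CUFF_NC.6674 at AT3G50320 (CHG 49.9%) and CUFF_NC.1548 at AT1G47265 (CHG 49.6%) completed the 5 highest in CHG among loci with enough CHG values, which are CUFF_NC.3823, CUFF_NC.4820, CUFF_NC.8895 and this pair. Each had accessions that stood far below: CUFF_NC.6674 was at 0.617% in CG in 9905 against a median of 89.9%, and CUFF_NC.1548 was at 2.57% in 6911 against 90.6%.

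Loci with little or no CHG methylation could be as high. CUFF_NC.342 in AT1G09980 was at 91.0% ± 7.60 in CG and 0.407% in CHG, and it was at least 68.7% in every accession. It spans 281 bp and 36.0% of its CG values were exactly 100%, and without those values its mean was 86.8%. CUFF_NC.7766 in PLDGAMMA3, a phospholipase D, was at 88.8% ± 19.2 in CG with 1.44% in CHG, between the 2 sets. Its CHG level reached 33.3% in 5486, from 1 library, and differed among accessions (F = 17.1, adjusted p = 3.315e-16, limma). At 335 bp it had 63.9% of its CG values at exactly 100%. Its accession mean was 0% in 9845, from 1 library, and between 64.9% and 100% in all others. The deposited tables mark no missing value, and in short loci a value of exactly 100% may rest on few reads or none. Coverage was not given, so the depth behind a value is unknown.

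CG levels differed among accessions at nearly all of these loci. Limma's moderated F-test over accessions passed an adjusted p of 0.05 at 1140 of 1177 loci, against 72.5% of all 34478 loci of the authors' annotation that were tested. Of the other antisense loci without TE, 49.4% of 5736 passed. A locus near 0% has little room to vary, and the choice of loci by their level bears on this comparison. In CHG 186 of 1164 passed, against 15.9% of all loci, and in CHH 124 of 1177, against 11.0%; both shares are near the background. In the 94 loci with CHG methylation, 64 (68.1%) passed in CHG and 51 (54.3%) in CHH. In the 984 without it, 70 (7.11%) and 43 (4.37%) passed. These sets were split by CHG level, and loci near 0% in CHG have little room to vary, so the split bears on these shares. In the 400 bp window at the start of the locus 907 of 1160 passed in CG, against 25.0% of all windows, and 200 bp of that window are part of the locus. Of 1116 host genes, 1091 passed in CG, against 64.0% of all Araport11 rows tested and 77.1% of 26042 protein-coding genes.

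The average level of the loci placed accession 6911 far below the rest. Its libraries were at 21.7% and 22.0%, and the next accession, 9512, had 1 library at 33.9%. The other 30 accession means ran from 45.1% in 9518 to 63.1% in 6184, with 6244, 6069 and 6220 at 62.7%, 62.6% and 59.8%. Libraries of an accession lay close together, with an SD of at most 1.13. In 6911, 447 of 1168 loci were at 10% or less and 325 at 30% or more, whereas 1099 of 1173 were at 30% or more in 6184. Host genes gave the same extremes, at 16.6% in 6911, 22.7% in 9512 and 45.0% in 6184. Not every growth round held every accession, and 6911 was grown in the first and second round only. Within the first round its library was at 21.7% and the next lowest at 44.6%, and within the second round at 22.0% and 33.9%. Libraries averaged 49.1%, 48.7%, 52.1% and 52.6% in the 4 rounds, and with the round as a term in the model 1135 loci passed the CG test.

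**Figure D3:**
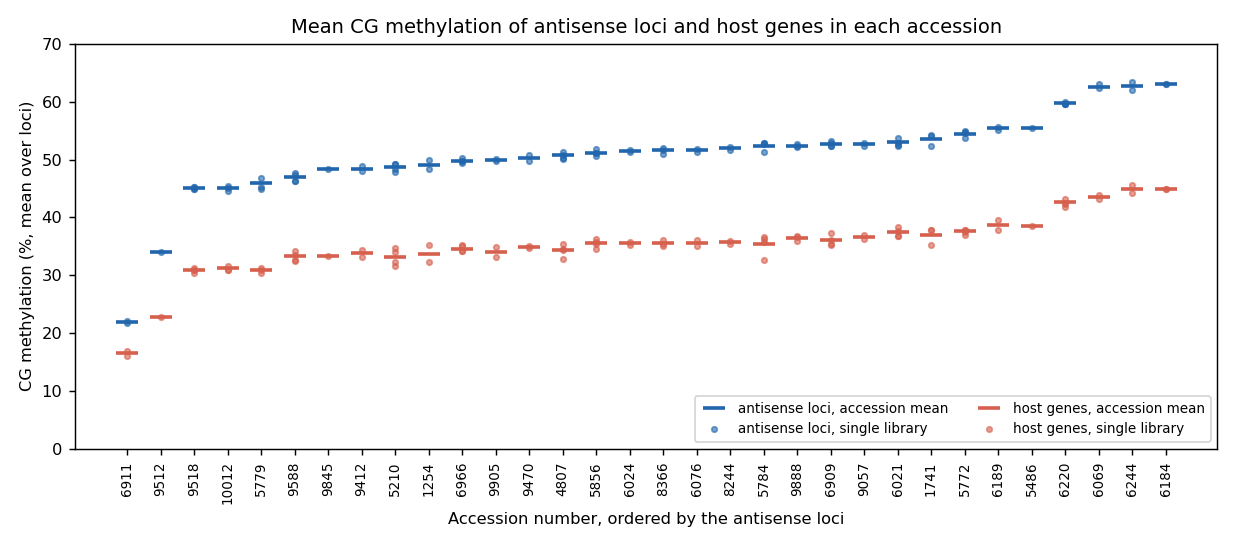
Mean CG methylation (percent, y axis) of the CG-methylated antisense loci (blue) and their host genes (red) in each of 32 accessions (x axis, ordered by the antisense loci); bars are accession means and points single libraries. Accession 6911 is at 21.9% and 6184 at 63.1% for the loci, and the loci are above the hosts in every accession.

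Accession 6911 was the lowest in loci with and without CHG methylation. Over the 984 loci without it the mean of 6911 was 19.6%, against 31.4% to 63.6% in the other accessions. Over the 94 loci it was 47.3%, against 57.4% to 74.7%. Its share of loci at 10% or less was nevertheless alike, 37.6% of the 984 and 41.4% of the 94 with a value. The difference between the sets was not tested.

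At single loci, accessions spanned a wide range. The median range between the lowest and the highest accession mean was 68.7 percentage points, and the median SD over accessions was 16.1 for loci and 8.81 for hosts. Loci are shorter than hosts, so their values rest on fewer cytosines, and the part of this in their wider spread was not tested. Only 132 loci were at 30% or more in every accession with a value, and 32 at 50% or more. At 695 loci at least 1 accession was at 10% or less; at 293 of these it was a single accession, which was 6911 in 178 cases. Leaving 6911 out brought the 695 to 517. At 150 loci 5 or more accessions were at 10% or less while 5 or more were at 50% or more. Such loci made up 34.0% of the 94 with CHG methylation and 9.55% of the 984 without it.

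At the 6 loci with the largest spread, accession means were at most 10% in 8 to 18 accessions and at least 50% in 11 to 22. Between 0% and 66.7% of their CG values were exactly 100%, which may be missing data. CUFF_NC.670 lies antisense to RKF2, which encodes a cysteine-rich receptor-like kinase, on chromosome 1 at 6590077 to 6590868. It is 316 bp from a TE fragment or TE gene. Its accession means had a lowest value of 0%, a median of 84.4% and a highest of 92.5%. In 13 accessions the mean was at most 2.8% and in 19 it was at least 71.7%, and no accession lay between (F = 117, adjusted p = 2.19e-39, limma). CHG methylation followed the same division, from 0% to 70.3%, and the host as a whole was at 51.9% ± 42.0 in CG. In 6909 the locus was at 88.6% and in 6911 at 0%.

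CUFF_NC.3568 overlaps the 351 bp gene AT2G16340 on chromosome 2 and extends beyond both of its ends. It was at 10% or less in 13 accessions and at 50% or more in 18, with 18.1% in CHG on average (F = 69.6, adjusted p = 5.98e-30, limma). CUFF_NC.2979 in AT2G02650 was low in 18 accessions and high in 11 (F = 740, adjusted p = 6.61e-52, limma). For 3 of the 11, 4807, 6220 and 9470, the mean came from 1 library at exactly 100% in CG; CHG was at 0% in 4807 and 6220 and had no value in 9470. The other 8 lay between 77.3% and 91.7%, and 6966 stood between the groups at 46.8%. CUFF_NC.10522 in BGLU13, a beta glucosidase, was low in 13 accessions and high in 17, and 22.6% of its CG values were exactly 100%.

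For the remaining pair the mean level rested on values of exactly 100%. CUFF_NC.713 at AT1G20400 had 66.7% of its CG values at exactly 100%, and its mean was 70.8% with them and 3.57% without. CUFF_NC.9125 in PAI2, a tryptophan pathway enzyme, had 36.1% such values, and its mean was 47.3% with them and 23.0% without. PAI2 has near-identical copies in the genome of several accessions, so the assignment of reads there is uncertain. Neither locus would pass the 30% limit without the values of exactly 100%, nor would CUFF_NC.2979, at 27.3%.

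**Figure D4:**
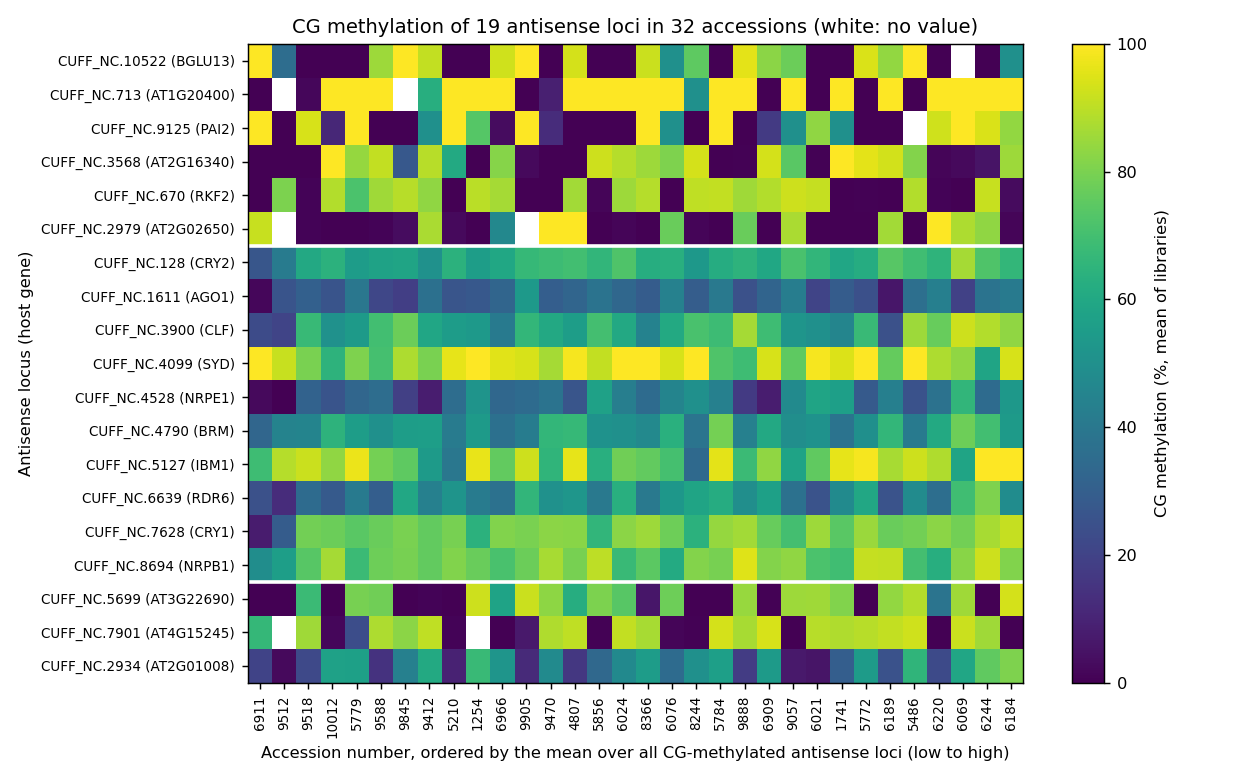
CG methylation (percent, colour) of 19 antisense loci (rows, with the host gene in parentheses) in 32 accessions (columns, ordered from the lowest to the highest mean over all CG-methylated antisense loci). The top block holds the 6 loci with the largest SD, with 8 to 18 accessions at or under 10% and 11 to 22 at or over 50%; at CUFF_NC.713 66.7% of the CG values were exactly 100%, which may be missing data; the middle block holds 10 loci in genes of small RNA, methylation, chromatin and light pathways; the bottom block holds the 3 loci whose difference from the host varied most by F.

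The antisense locus was more methylated in CG than its host gene body as a whole. Over 1174 pairs the locus averaged 50.6% and the host 35.2%, a difference of 15.5 percentage points ± 2.32 (SD over accessions, n = 32). It was positive in 32 of 32 accessions, from 5.42 in 6911 to 19.0 in 6069. The locus was above its host in 1028 pairs and below it in 145, and by more than 20 points in 428 and 2 pairs. Loci were chosen for a high CG level and hosts were not, so the difference is given with no test. The host level includes the locus: where the locus covered under 10% of the host the difference was 19.0, and where it covered 50% or more it was 6.68. For antisense loci under the limit, which were chosen for a low level, locus and host were at 4.48% and 8.35%.

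**Figure D5:**
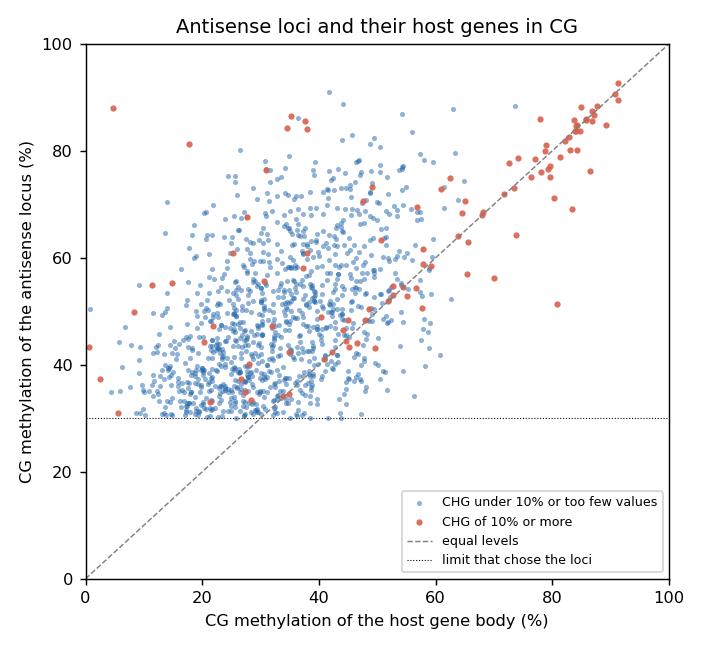
CG methylation of the host gene body (x axis, percent) and of the antisense locus (y axis, percent); each point is a locus, with those at 10% or more in CHG in red. The dotted line is the 30% limit that chose the loci. Blue points mostly lie above the dashed line of equal levels, while many red points lie on it between 70% and 90%.

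Across accessions, locus and host went together. The correlation of their accession means over the accessions had a median r of 0.745 (quartiles 0.598 and 0.858) over 1177 loci, and it was negative at 10. It was 0.591 for 370 loci that covered at most 15% of the host and 0.946 for 168 that covered at least 50%. Locus and host share cytosines and libraries, so these values are a description.

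In CHG and CHH, which did not choose the loci, locus and host differed little at most loci. The mean CHG difference was 0.389 points ± 0.104 and the mean CHH difference 0.0939 ± 0.0343, each positive in 32 of 32 accessions, but the median difference over loci was 0.0119 points in CHG. Limma's paired moderated test on accession means called 111 of 1159 loci different from their host in CHG, against 4.99% of all antisense loci tested. The locus was higher at 65 (background 1.66%) and lower at 46 (background 3.33%). Of the 65, 32 were among the 90 tested loci with CHG methylation and 4 among the 984 without it. These sets were split by the CHG level of the locus itself, and a locus at 1% or less can lie little above its host. The split therefore bears on these counts. In CHH 90 of 1174 differed (background 3.86%), the locus being higher at 58 (background 1.42%) and lower at 32 (background 2.43%). On the arcsine square root scale the calls in CHG became 54 higher and 640 lower, and in CHH 50 higher and 632 lower, so counts of small differences in either direction rest on the scale.

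The loci furthest above their host sat at its edge or were short. CUFF_NC.7737, on chromosome 4 at 7013226 to 7013822, overlaps AT4G11610 by 15.7% of its own length at the 3′ end of the host. It had 88.1% ± 7.59 in CG, lowest 71.4% and highest 100%, and the host 4.79% ± 3.28. Of the CG values of this locus 32.5% were exactly 100%, and without those values its mean was 81.4%. Its CHG level of 36.8% was 36.5 points above the host's (adjusted p = 1.83e-10, limma). CUFF_NC.1351 at AT1G36580 was at 81.2% against 17.8%, and 7.22 points above its host in CHG (adjusted p = 5.55e-05, limma). CUFF_NC.8450 in AT4G28770 (70.5% against 14.0%) and CUFF_NC.5225 in AT3G10810 (80.3% against 26.4%) lie wholly inside their hosts, with CHG under 1%. The CG accession test of CUFF_NC.8450 passed narrowly (adjusted p = 0.0416, limma) and did not pass without the libraries of round 1, of round 3 or of round 4, with the replicate block or on the arcsine scale.

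The 4 loci named as furthest below their host were lower by 18.3 to 23.0 points, on average over the accessions with both values. CUFF_NC.7555, which spans the whole of AT4G07965, had 51.3% in CG against 80.8% in the host. Over the accessions with both values the CG difference was -23.0 points, and it was largest in 9588, at -90.5 points. The highest accession mean of this host was exactly 100%, which may be missing data, although the host lies wholly inside the locus. The CHG difference of CUFF_NC.7555 was -8.38 points (adjusted p = 4.48e-07, limma). CUFF_NC.9006 at AT5G03400 was at 41.9% against 60.8%, with a CHG difference of -8.85 points (adjusted p = 5.39e-05, limma). CUFF_NC.7470, at the 3′ end of DDB1A, a subunit of ubiquitin ligase complexes, was at 39.9% ± 18.5 against 58.2% ± 8.04. CUFF_NC.3956 in AT2G25050 was at 34.2% ± 14.8 against 56.4% ± 10.8. Its lowest, median and highest accession means were 12.4%, 32.5% and 90.5%, and the highest was 6911, the accession with the lowest average. In 6911 the locus also had 69.4% in CHG, while no other accession passed 4.5% (F = 179, adjusted p = 4.39e-44, limma). The libraries of 6911 there were at 89.5% and 91.4% in CG.

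The difference between locus and host varied among accessions in CG at 1019 of 1174 loci by limma's moderated F-test, against 64.7% of the antisense loci tested. Among the other antisense loci without TE the share was 60.2% of 5724. Loci near 0% have little room to vary, and the choice of loci by their CG level bears on this comparison too. The locus-minus-host difference had its largest F at CUFF_NC.5699 in AT3G22690, on chromosome 3 at 8021659 to 8022097. The locus was at 10% or less in 12 accessions and at 50% or more in 19, from 0% to 93.6%, with 0.384% in CHG on average. Its host ranged from 5.05% to 53.0%. The difference ran from -25.2 points in 10012 to 57.1 in 1254 (F = 60.4, adjusted p = 4.22e-30, limma). This locus switched in CG alone, whereas CHG methylation moved with CG at RKF2. CUFF_NC.7901 at AT4G15245 (F = 41.3) reached a difference of -100 in 6184, where the locus read 0% and the host exactly 100%. The locus covers 90.5% of this host, so that host value may be missing data. The F was computed with CG values of exactly 100% kept. CUFF_NC.2934 at AT2G01008 (F = 40.3) ranged over accessions from 2.64% to 80.9%, with a median of 45.5%, and its libraries differed little within an accession (SD 2.64).

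Loci antisense to known regulators of small RNAs, methylation, chromatin and light responses give familiar examples. Among 14 genes of small RNA and RNA-directed DNA methylation pathways, 4 had an antisense locus without TE, and all 4 loci reached 30%. Of all 6913 antisense loci without TE that had levels, 17.03% did, and of those in hosts of 6 kb or more 44.9% did. The hosts of these 4 loci are 4700, 7000, 7571 and 9259 bp long. CUFF_NC.8694 in NRPB1, the largest subunit of RNA polymerase II, was at 77.1% ± 10.6 in CG, lowest 49.0% in 6911 and highest 95.3%, and its host was at 54.4%. CUFF_NC.6639 in RDR6, the RNA-dependent RNA polymerase of trans-acting small RNAs, was at 46.2% ± 14.98 with its host at 47.8%. CUFF_NC.4528 in NRPE1, the largest subunit of RNA polymerase V, was at 35.2% ± 16.5, and CUFF_NC.1611 in AGO1, the slicer of the microRNA pathway, at 30.5% ± 10.7. These 2 loci were below their hosts, at 47.9% and 36.3%. CHG was under 1% at all 4, and the CG accession test passed at all 4. At CUFF_NC.1611 it did not pass without the libraries of round 4 (adjusted p = 0.0773, limma).

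Among 11 genes of DNA methylation and demethylation, 7 had such loci, and 1 of their 9 loci reached 30%, near the 17.03% of all antisense loci without TE. That locus, CUFF_NC.5127, lies in IBM1, a histone H3 lysine 9 demethylase that keeps CHG methylation out of genes, on chromosome 3 at 2427942 to 2428279. It was at 79.0% ± 17.4 in CG, with a lowest accession mean of 34.4%, a median of 81.3% and a highest of 100%. Its host was at 34.9% ± 6.92. IBM1 is known for a methylated intron, and here the host body had 2.48% in CHG while the antisense locus had 0.319%, a difference of -2.16 points (adjusted p = 3.47e-07, limma). A second antisense locus nearer the start of IBM1, CUFF_NC.5126, was at 0.293% in CG. Loci in MET1 (18.9% and 21.1%), DME (17.8%), ROS1 (13.0%), DML2 (7.94%), CMT2 (3.84%) and DML3 (0.765%) stayed under the limit.

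Among 5 chromatin regulators, 3 had an antisense locus and all 3 reached 30%, against 17.03% of all such loci. Their hosts are 5295, 9523 and 17067 bp long, and the share was 33.7% in hosts of 4 to 6 kb and 44.9% in longer ones. CUFF_NC.3900 in CLF, a histone H3 lysine 27 methyltransferase of Polycomb, was at 61.0% ± 18.2, with 20.3% in 9512 and 92.4% in 6069. CUFF_NC.4790 in BRM, a SWI/SNF remodelling ATPase, was at 53.3% ± 11.8. CUFF_NC.4099 in SYD, another such ATPase, was at 87.9% ± 11.9, but 50% of the values of this 285 bp locus were exactly 100%, and its mean without them was 77.9%. Among the photoreceptors, CUFF_NC.7628 in CRY1 was at 75.1% ± 16.4 and CUFF_NC.128 in CRY2 at 62.3% ± 10.3, both cryptochromes that sense blue light. CRY1 ranged from 7.78% in 6911 and 29.2% in 9512 to 91.3% in 6184, and each of the other 30 accessions was at 64.1% or more. In both cryptochromes the locus was above the host in 32 of 32 accessions, by 23.4 and 19.8 points. The locus in PHYB was at 0.333%.

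The antisense loci at FLC, MAF4 and CDF5, whose antisense transcripts have been described in the literature, were not CG-methylated. They were at 3.01%, 1.10% and 1.64%. The list held 5 genes, of which these 3 had an antisense locus without TE. Of all 6913 antisense loci without TE that had levels, 17.03% reached 30%, so most such loci lie under the limit. The loci at FLC and CDF5 cover their hosts completely, and that at MAF4 begins past the 3′ end and covers 46.1%.

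The limit of 30% cut through a continuous distribution: 334 loci (28.4%) lay between 30% and 40%. Just above it were CUFF_NC.7942 in AT4G15810 (30.02%), CUFF_NC.9868 in AT5G27395 (30.02%) and CUFF_NC.6119 in AT3G30390 (30.07%). Just below it were CUFF_NC.9124 in ROPGEF5 (29.98%), CUFF_NC.5470 in PLDP1 (29.9%) and CUFF_NC.10315 at NAC093 (29.9%). The 3 loci above the limit had hosts at 38.6% to 43.8%, so that they lay below their hosts.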

How the data were processed

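The authors deposited methylation levels as fractions from 0 to 1, per locus and library, in 12 tables of 3 contexts, gene body or promoter window, and 2 annotations (Araport11 and their own). Per the labels' protocols, DNA was sequenced with paired 100 bp reads. The genome build is TAIR10 per the submitters' processing notes; the aligner, the caller and how a level was computed are not stated there or in the labels. The tables hold no counts or coverage, so the depth is unknown and counting error has no interval here.

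Loci were classed by coordinates with an overlap of at least 1 bp on the opposite strand. The host is the overlapping protein-coding gene, or the gene with the longest overlap where several overlapped. More than 1 host gene overlapped 28 of the 1225 loci. Araport11 genes were taken first, and 2 loci had a host in the authors' annotation only. Gene names came from a RefSeq table (TAIR10.1), used for names only, in which 1166 of 1168 hosts were found. Exactly 1 in CHH was read as a missing region in every context, and exactly 1 in CHG as missing there alone; no label states this code. Loci needed a value in 80% of libraries. Levels are percents of the accession means. Tests were made on the fractions in limma 3.58.1 (R 4.3.3): a one-way moderated F-test over accessions on libraries, and a paired moderated test of locus minus host on accession means. The F-test was also made on the locus-minus-host CG difference within each library. Benjamini-Hochberg adjustment at 0.05 was over the whole table for the F-tests of levels. For tests of locus minus host it was over the antisense loci without TE that had a host with values. The 3 accessions with 1 library add nothing to the replicate variance. On simulated data with 200 changed loci the F-test recovered 82.5%, 89% and 88.5% in CG, CHG and CHH among 6000 loci, and the paired test 94.5% in CHG among 6872 and 96.5% in CHH among 6900.

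Replicate numbers mark growth rounds, per the series' design text. Deviations from accession means correlated with a median r of 0.0014 for 898 library pairs of the same round. For 2578 pairs of different rounds the median r was 0.0003. Single pairs of the same round ran from -0.127 to 0.151. A shift of a round that is alike at all loci cannot show in such a correlation. Named loci are the 6 with the largest SD over accessions among those past the CG test, the 5 highest in CG, the 5 highest in CHG, the 4 furthest above and the 4 furthest below the host, the 3 on each side of the limit, all with a host in one of 5 lists of known genes, and the 3 with the largest F of the locus-minus-host difference. Loci of AT5G40910 and TADA, and loci under the limit in the gene lists, are given besides. The loci and lists were chosen with earlier results of these data known. Alternatives were an arcsine square root scale, values as deposited, complete loci, the growth round as replicate block, accessions with at least 2 libraries, leaving out each round, other CG limits, means over libraries, the overlap and length of a locus, and, added after seeing the data, CG of exactly 1 as missing and 6911 left out. No column of values was left out (0 unmapped). No sequence is shown; a genome sequence was not used here.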

Additional observations from a re-analysis of the deposited data

Results flagged for a closer look

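The locus-minus-host CG difference varied among accessions at 1019 of 1174 loci by the moderated F-test over accessions in limma. The share was 64.7% of all antisense loci tested, and the choice of loci by their CG level bears on this comparison. The largest F values were at CUFF_NC.5699 (F = 60.4), CUFF_NC.7901 (F = 41.3) and CUFF_NC.2934 (F = 40.3). At CUFF_NC.7901 the host read exactly 100% in 6184, which may be missing data.

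In accessions with 4 libraries, 1 library stood apart from the other 3 in 14 of 117 groups of values, where chance gives about 1 in 20. The average of the loci in CG was 51.3% in replicate 1 of 5784, with the others at 52.6% to 52.8%. In CHG it was 2.38% in replicate 3 of 5210, with the others at 2.56% to 2.58%, and for hosts in CHG it was 2.71% in replicate 4 of 4807, with the others at 2.53% to 2.56%. The other 11 are values at the 6 most variable loci where all remaining libraries read exactly 0% or exactly 100%, so that any other value stands apart. CUFF_NC.10522 read 77.8% in replicate 1 of 5772 and CUFF_NC.9125 read 75% in replicate 4 of 9518, both against 100%. Against 0%, CUFF_NC.9125 read 13.3% in replicate 2 of 6966, CUFF_NC.713 read 7.14% in replicate 3 of 9518 and CUFF_NC.3568 read 2.70% in replicate 1 of 6021. CUFF_NC.670 read 1.33% in replicate 3 of 5210, 6.12% in replicate 3 of 5856 and 3.51% in replicate 4 of 9518. CUFF_NC.2979 read 1.09%, 1.01% and 1.05% in single libraries of 5784, 6021 and 6909.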

How the results depend on the processing

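With a CG limit of 0.5 in place of 0.3 there were 579 loci, with mean levels of 63.2%, 4.65% and 1.31% in CG, CHG and CHH and a locus-minus-host CG difference of 21.0 points; with 0.2 the CHG level was 2.41% and the difference 12.5. Values as deposited, in which a missing region reads 1, gave 8.31% in CHG and 5.62% in CHH. Loci with at least 50% of their length inside the host had 2.31% and 0.828%, and CG of exactly 1 as missing gave 0.836% in CHH. Locus-minus-host calls rose to 694 in CHG and 682 in CHH on the arcsine square root scale, and CHG calls fell to 68 over loci with a value in every library. In the main test the CHG differences of CUFF_NC.7628 and CUFF_NC.8694 were 0.0099 and 0.113 points, and neither was called (adjusted p = 0.98 and 0.86, limma). On the arcsine square root scale their sign changed, to -0.015 and -0.026 radians, and the cause was not tested.

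Leaving out each round in turn gave 82 to 103 accession calls in CHH, 68 to 85 locus-minus-host calls in CHH, and 1049 to 1115 accession calls in CG. The replicate block changed no count by over 1.5 times: 1135 loci passed in CG and 108 and 88 locus-minus-host calls were made in CHG and CHH. Of 386 alternative CG tests of 41 named loci, 22 changed the call, at 11 loci. The tables hold no coverage, so no limit from depth can be set, and a CG value of exactly 100% cannot be told from missing data in a short locus.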

Other observations

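Accession 9888 stood apart in CHG at CG-methylated antisense loci, which was noticed after the values were seen. Over the 86 loci with a mean CHG level between 1% and 10%, it was at 7.88% (3 libraries, 7.49% to 8.42%), the next accession, 5486, at 4.81% and the median accession at 2.55%. Of these 86 loci, 18 were at 10% or more in 9888, against a median of 6 and at most 15 in the other accessions. A locus methylated in CHG in 1 accession alone can fall in this range through the mean, so the set is not independent of the pattern. Over the 984 loci at 1% or less, 9888 was again the highest, at 0.693% (libraries 0.643% to 0.752%), with 6021 next at 0.569%. Host genes of the 984 gave 0.644% in 9888 and 0.569% in 8366, the next. Over the 94 loci at 10% or more, 9057 was the highest, at 35.4%, and 9888 was at 32.2%. Accession 10012 was the lowest there, at 18.5%, against a median of 28.7%. In CG the averages over all loci were 52.4% in 9888 and 45.1% in 10012. These differences between accession averages were not tested.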
